A study of Mus musculus with 12 samples.

Results

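The comparison set 4 arrays of mouse testis labelled stages XII-I and II-IV against 4 arrays labelled stages IV-VI and VII, which is 8 of the 12 arrays of the series. The first 4 arrays are called XII to IV here and the second 4 IV to VII; the groups were taken from the sample labels and no measured value was used to choose them. Each stage group held 2 samples, and the other 4 arrays (VIII-IX and IX-XI, together VIII to XI) entered only the estimate of the spread and were shown as context. All 12 samples were whole testes of male mice of mixed 129/C57BL6 background that had received the retinoic acid synthesis inhibitor WIN 18,446 at 100 ug per gram daily for 7 days, from day 2 to day 8 after birth, then 200 ug of retinoic acid on day 9, and had recovered for 43 to 49 days. This treatment makes the seminiferous tubules of one testis pass through the cycle together, and stages were assigned by the submitters from testis morphology. No untreated testis was analysed here, so every group shares the drug treatment. Separate animals are not stated for the 2 samples of a group in the labels; the p-values rest on sample-to-sample spread, which may be technical. In whole tissue, fewer cells of a type and less RNA per cell cannot be told apart.

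The seminiferous epithelium of the mouse runs through a fixed cycle of germ cell associations. Spermatocytes complete the meiotic divisions at stage XII, and new round spermatids form at the end of that stage. From stage I to stage VIII these cells build the acrosome, the enzyme-filled cap of the sperm head, while an older generation of elongated spermatids condenses its chromatin and is prepared for release. Intermediate and type B spermatogonia divide in the stages between, and preleptotene spermatocytes enter meiosis around stages VII and VIII.

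The deposited values were intensities of a whole-transcript array, 24.97 to 21760 on a linear scale, with array medians between 296.9 and 309.1. They were taken to log2, and 19946 genes were tested. Arrays within a label were not always the most alike. II-IV 1, the first II-IV sample, had a Pearson correlation across genes of 0.998 with IV-VI 2 and 0.994 with IV-VI 1, and of 0.987 with II-IV 2. II-IV 2 had a correlation of 0.998 with XII-I 2. XII-I 1 had a correlation of 0.988 with XII-I 2, and 0.987 with VIII-IX 2, outside both pools. With II-IV 2 it had 0.986 and with II-IV 1 0.972. Both the II-IV and the IV-VI labels hold stage IV. Among the 3499 genes called below, II-IV 1 was the XII to IV array nearest to the other pool for 3093 genes, or 88.4%, and IV-VI 2 was the IV to VII array nearest for 2380, or 68%. VII 2 carried more somatic marker signal than the other 7 arrays: the summed intensity of 8 Leydig cell markers was 25363 on VII 2 and 15812 to 19521 on the other 7 arrays, and the sum of 15 macrophage markers was 11891 against 7783 to 9184. Counts over all genes and over the lists with several calls are therefore also given without II-IV 1, IV-VI 2 or VII 2. Fits without some of the other arrays that moved them are given too. Leaving out VII 1 also lowered the count over all genes, and the lists are not given without that array. XII-I 1 is left out for only some of the lists that it moved.

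Of 19946 genes, 2220 (11.1%) were higher in XII to IV and 1279 (6.41%) lower, at an adjusted p under 0.05 in limma with Benjamini-Hochberg adjustment over all genes. A difference is always the log2 intensity in XII to IV minus that in IV to VII, each pool being the mean of its 2 group means. Differences of at least 2-fold were fewer, with 121 genes (0.607%) higher and 216 (1.08%) lower. In this fit the lower genes were thus the larger part at 2-fold and the smaller part over all calls. A fit of the 8 arrays as 2 plain groups gave the other order at 2-fold, with 76 higher and 63 lower. Over all genes tested, called or not, the 4 XII to IV arrays lay above all 4 IV to VII arrays for 2150 (10.8%) and below them for 989 (4.96%). For 1496 called genes (7.5% of all tested) they lay above, and for 630 (3.16%) below. With the dimmest 30% of genes left out, 3602 of 13962 genes were called, a larger share. The shares over all genes, given beside each list below, may therefore be low for lists of genes expressed in the testis.

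The number of calls rested on single arrays. Without II-IV 1 it was 4533, with 2570 higher (12.9%) and 1963 lower (9.84%), and 3333 of the 3499 genes were called again. Without IV-VI 2 it was 2506, without XII-I 1 it was 2188, without VII 2 it was 1984, and without II-IV 2 it was 1030. Without IV-VI 1 no gene was called: the smallest adjusted p was 0.0677, and 4547 genes had an unadjusted p under 0.05, against 6269 with all arrays. Every one of the 3499 genes kept its direction in each of the 12 fits that left out 1 array, and 967 were called in all 11 fits other than that without IV-VI 1. The fits without a VIII to XI array leave each difference as it was, so they could not turn a direction. For genes whose pools did not overlap, leaving out any 1 array could not turn it either. A fit of the 8 arrays as 2 plain groups of 4, which counts differences between stage groups as error, called 674 genes higher (3.38%) and 242 lower (1.21%), and 904 of these 916 were among the 3499. The end of every call without IV-VI 1 holds for each gene and list named below and is not repeated at each.

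**Figure D1:**
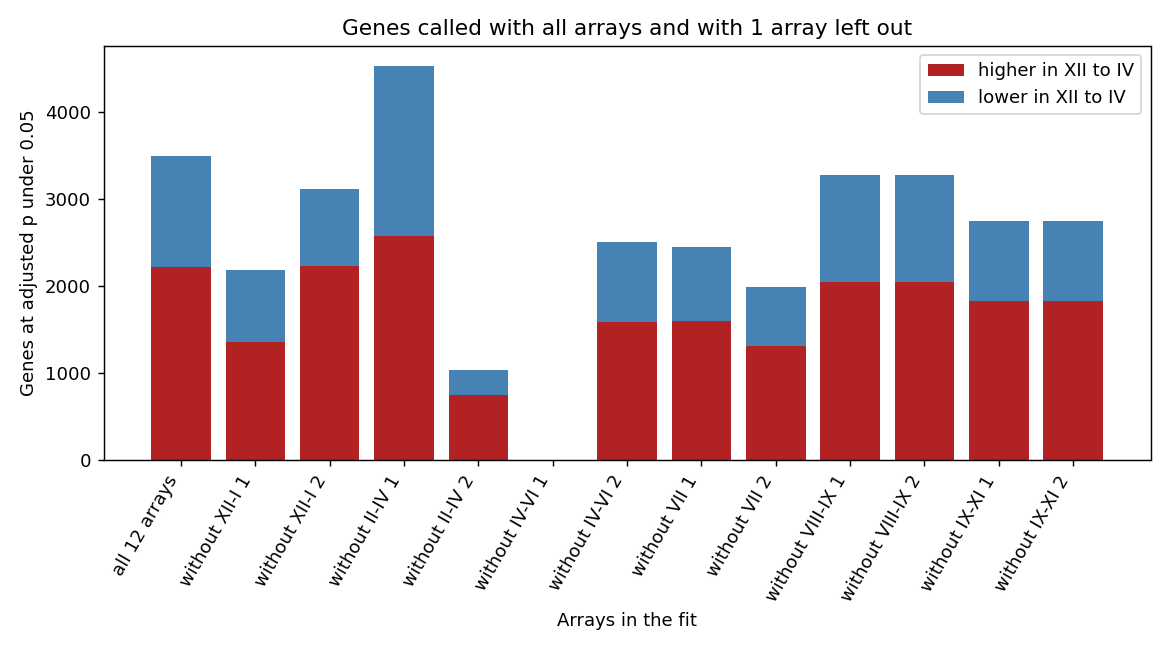
Number of genes at an adjusted p under 0.05 (vertical axis) with all 12 arrays and with each array left out in turn (horizontal axis), stacked as higher (red) and lower (blue) in XII to IV. The count was 3499 with all arrays, 4533 without II-IV 1, 1030 without II-IV 2 and 0 without IV-VI 1.

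The 15 genes with the largest rise in XII to IV, among called genes whose arrays did not overlap between the pools, differed by 1.42 to 2.26 on the log2 scale (adjusted p 0.0131 to 0.0172). Nutm2, a member of the NUT gene family, had log2 intensities of 8.91, 8.97, 7.84 and 8.87 in XII-I 1, XII-I 2, II-IV 1 and II-IV 2, against 6.57, 7.17, 6.22 and 6.31 in IV-VI 1, IV-VI 2, VII 1 and VII 2. The pools were separate, and II-IV 1 was the lowest of the first 4 and IV-VI 2 the highest of the second 4. Its means were 8.65 ± 0.54 and 6.57 ± 0.43 (SD, n = 4 arrays each), a difference of 2.08 ± 0.22 (SE) with an adjusted p of 0.0131. Defb33, a beta-defensin, had the largest difference, 2.26 ± 0.31 (SE), with 11.58, 11.37, 9.96 and 11.41 in XII to IV and 7.86, 8.82, 9.45 and 9.16 in IV to VII, in the same array order.

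Dnaic2, an intermediate chain of the outer dynein arm that drives the sperm tail, followed at 2.10 ± 0.32. It had 11.68, 11.60, 10.36 and 11.55 in XII to IV and 9.13, 10.12, 8.70 and 8.83 in IV to VII. Here II-IV 1 and IV-VI 2 lay only 0.24 apart, although the pools did not overlap. Slc2a8, the glucose transporter GLUT8, differed by 1.59, Rhcg, an ammonium transporter, by 1.83, and Tuft1, first known as a tooth enamel protein, by 1.69. The EF-hand gene Efcab8 differed by 1.83, and Spata32 and Odf3b, both known from the testis, by 1.59 and 1.55. Ccnf, the cyclin F subunit of a ubiquitin ligase that acts in G2, differed by 1.44, and Aurka, the Aurora A kinase of the spindle poles, by 1.44. The other genes were Ssxb3 (1.55), Spdye4a (1.52), Ssxb5 (1.48) and Rnase10 (1.42). Ssxb3, Ssxb5 and Spdye4a belong to families of near-identical copies, so their probe sets may read several genes. Of the 15 genes, 14 were called with the pools as 2 plain groups and all 15 without II-IV 1.

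The 15 genes with the largest fall in XII to IV differed by 1.85 to 2.49 in absolute log2 (adjusted p 0.0131 to 0.0182). Asb15, a substrate receptor of a ubiquitin ligase, had 7.21, 7.80, 10.52 and 8.05 in XII to IV and 11.15, 10.55, 11.03 and 10.84 in IV to VII. II-IV 1 lay just under the lowest IV to VII array, and the other 3 XII to IV arrays lay far below it, between 7.21 and 8.05. The difference was -2.49 ± 0.50 (SE) with all arrays and -3.11 without II-IV 1. Hsfy2, a testis heat shock transcription factor family member, had 8.42, 9.35, 11.75 and 10.10 in XII to IV and 12.14, 11.81, 12.18 and 12.11 in IV to VII, a difference of -2.15 ± 0.36. Klf17, a zinc finger transcription factor, had 6.73, 6.70, 8.96 and 6.71 in XII to IV and 9.71, 9.03, 9.75 and 9.35 in IV to VII, a difference of -2.18 ± 0.43.

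Among these genes were parts of the sperm surface and of membrane transport. Adam29, a sperm surface ADAM protein, differed by -2.23, and Tmem81, a sperm membrane protein needed for fusion with the egg, by -1.85. P2rx3, an ATP-gated cation channel, differed by -2.04, Cngb3, a cyclic nucleotide-gated channel subunit known from cone photoreceptors, by -2.0, and Slc25a41, a mitochondrial carrier, by -1.94. Acot10, a mitochondrial acyl-CoA thioesterase, differed by -2.17 and Serpina3a, a serine protease inhibitor family member, by -2.22. The remaining genes were Lrrd1 (-2.49), Mroh5 (-2.13), Stk-ps2 (-2.10), Heatr9 (-2.06) and Tex29 (-1.90). Of these 15 genes, 7 were called with the pools as 2 plain groups and all 15 without II-IV 1. In 15 of 15 genes II-IV 1 was the XII to IV array nearest to IV to VII.

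The levels on the VIII to XI arrays set the 2 groups of genes apart from each other only in part. The mean of VIII to XI lay above the midpoint between the pools for 8 of the 15 genes that were higher in XII to IV and for 11 of the 15 that were lower. Nutm2 had 6.28, 6.75, 6.55 and 6.28 on the VIII to XI arrays, as low as in IV to VII, whereas Defb33 had 11.69, 11.68, 11.30 and 10.82, near its XII to IV level.

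**Figure D2:**
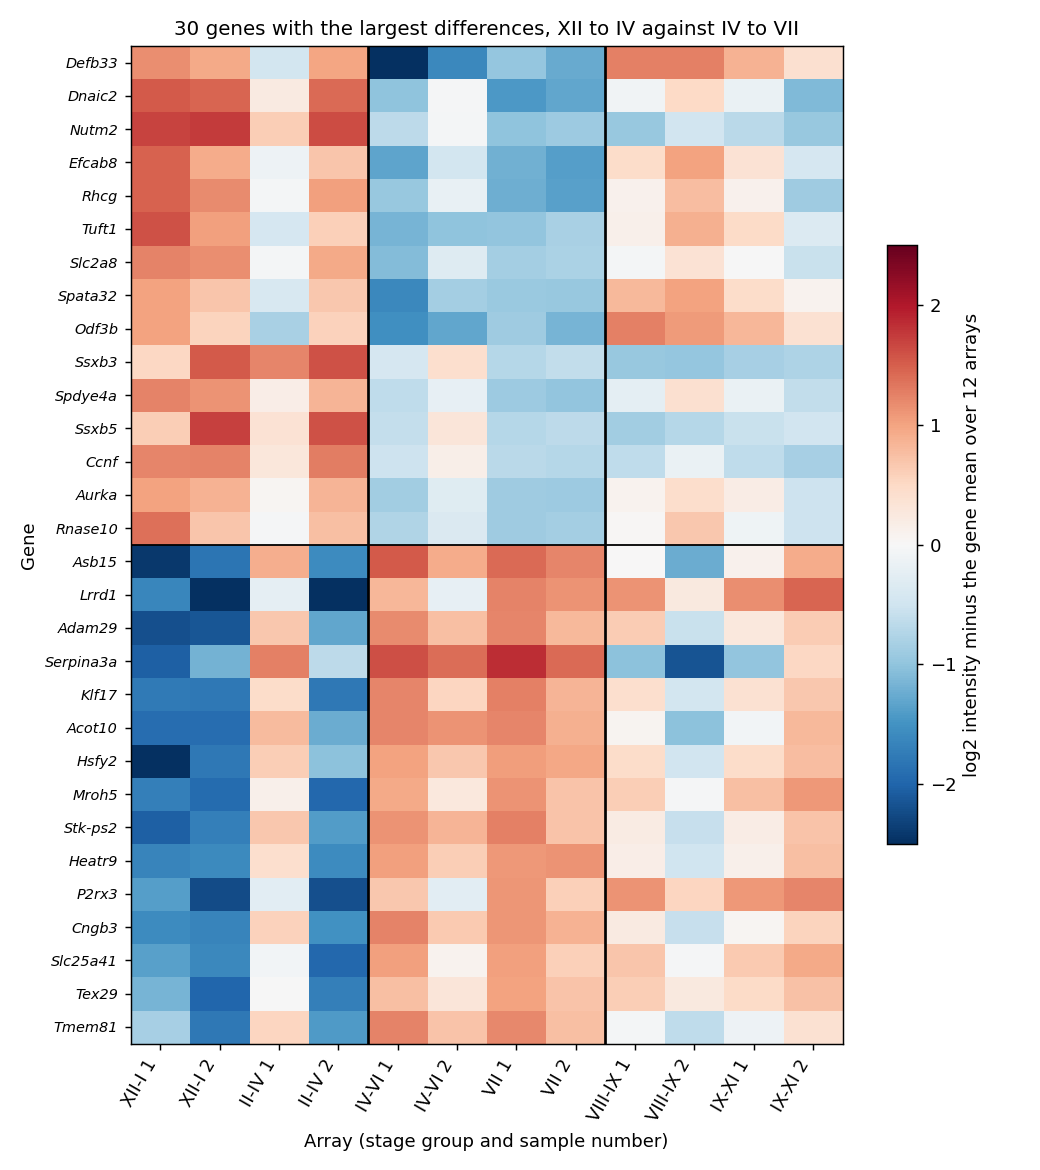
The 30 genes (rows, 15 higher above the horizontal line and 15 lower below it) on the 12 arrays (columns; black lines divide XII to IV, IV to VII and VIII to XI), coloured by log2 intensity minus the gene's mean over all arrays (red high, blue low). In the columns of XII to IV, II-IV 1 is the array closest to IV to VII for 29 of the 30 genes.

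Genes of the meiotic division and of M phase were the list with the most members higher in XII to IV. Of 56 measured members, 28 rose and 2 fell, so that 53.6% were called, against 17.5% of all genes; 26 had all XII to IV arrays above all IV to VII arrays, where 10.8% of all genes did. The median difference of the list was 0.43, and 0.03 over all genes. This list and the others were chosen with earlier results of these data known. Their shares called are therefore descriptions and do not test the lists. Aurka had 12.15, 12.01, 11.19 and 11.99 in XII to IV and 10.26, 10.84, 10.26 and 10.24 in IV to VII, a difference of 1.44 ± 0.22 (SE, adjusted p 0.0131). Only II-IV 1 and IV-VI 2 departed from a near-even level within their pools. Ccna1, the cyclin A1 that male meiosis requires, had 12.77, 12.72, 12.20 and 12.76 in XII to IV and 11.58, 12.11, 11.25 and 11.13 in IV to VII, a difference of 1.10 ± 0.19.

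Aurkb, the kinase of the chromosomal passenger complex, differed by 1.06 ± 0.25, and Cenpe, a kinetochore motor, by 0.99 ± 0.17. Aurkb spread widely within XII to IV, with 11.07 in XII-I 1 and 9.28 in II-IV 1, and that lowest array lay below the highest of IV to VII, 9.36 in IV-VI 2. The 2 members that fell, named here after their values were seen, were Pkmyt1 (-0.38), a kinase that holds Cdk1 inactive, and Cenpa (-0.37), the centromeric histone H3. Plk1, the polo kinase of mitotic entry, also chosen after its values were seen, had group means that stepped down through both pools: it had 12.31 and 12.34 in XII-I, 11.88 and 12.30 in II-IV, 11.55 and 11.95 in IV-VI, and 11.13 and 10.95 in VII. Members with no call included Ccnb2 (0.17, adjusted p 0.095) and Mki67 (-0.27, adjusted p 0.087). The list had 28 higher and 7 lower without II-IV 1, 25 and 1 without IV-VI 2, 15 and 0 without II-IV 2, 21 and 2 without XII-I 1, 18 and 1 without VII 2, and 15 and 2 with the pools as 2 plain groups.

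Proximal promoters of Aurka and Ccna1, the members that differed most, are printed below with those of Hyal5 and Lyzl6, the acrosome members that differed most the other way. They come from RefSeq on GRCm38.p6 and are the 300 bases around the gene start, most of them upstream, 5′ to 3′ on the strand of the gene. Capitals mark the CCAAT box (CCAAT) and the cell cycle genes homology region (TTTGAA or TTCGAA), searched on both strands, so that ATTGG and TTCAAA are the same motifs read on the other strand.
Aurka, chr2:172370521-172370820, minus strand: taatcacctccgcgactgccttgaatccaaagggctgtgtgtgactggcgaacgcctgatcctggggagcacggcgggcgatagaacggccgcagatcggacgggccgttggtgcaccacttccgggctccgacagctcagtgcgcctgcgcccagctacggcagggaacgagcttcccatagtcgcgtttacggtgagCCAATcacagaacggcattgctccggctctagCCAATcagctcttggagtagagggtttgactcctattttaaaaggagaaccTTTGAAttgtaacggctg
Ccna1, chr3:55055006-55055305, minus strand: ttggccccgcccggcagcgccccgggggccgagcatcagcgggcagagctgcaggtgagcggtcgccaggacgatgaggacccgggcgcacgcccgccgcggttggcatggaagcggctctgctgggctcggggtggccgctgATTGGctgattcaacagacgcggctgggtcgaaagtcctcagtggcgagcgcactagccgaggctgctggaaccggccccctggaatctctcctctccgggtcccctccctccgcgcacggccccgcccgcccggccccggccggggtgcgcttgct
Hyal5, chr6:24857747-24858046, plus strand: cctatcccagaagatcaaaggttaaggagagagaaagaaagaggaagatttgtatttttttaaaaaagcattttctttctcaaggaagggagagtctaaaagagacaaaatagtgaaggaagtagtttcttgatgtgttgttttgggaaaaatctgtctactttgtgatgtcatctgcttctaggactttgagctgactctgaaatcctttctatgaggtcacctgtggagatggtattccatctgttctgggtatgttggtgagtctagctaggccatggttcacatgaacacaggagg
Lyzl6, chr11:103638841-103639140, minus strand: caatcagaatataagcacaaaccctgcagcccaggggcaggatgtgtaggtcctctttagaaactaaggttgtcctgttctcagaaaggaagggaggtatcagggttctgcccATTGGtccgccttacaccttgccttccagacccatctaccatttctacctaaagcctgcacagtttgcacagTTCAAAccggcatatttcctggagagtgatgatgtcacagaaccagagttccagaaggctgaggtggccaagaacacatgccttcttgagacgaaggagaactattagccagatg

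Of the M phase list, 46 members had a promoter in the table. The cell cycle genes homology region was found in 63% of them and the CCAAT box in 67.4%, against 16.8% and 38.2% of the 15619 measured genes with a promoter. Among the 24 of them that rose in XII to IV the shares were 54.2% and 70.8%, so the homology region was no more frequent there than over the whole list. Among the 35 acrosome members with a promoter, each motif, counted separately, was found in 31.4%. The cyclic AMP response element (TGACGTCA) was in 6.52% of the M phase and 2.86% of the acrosome promoters, and in 2.49% of all. Over all called genes the shares were near the background: the cell cycle genes homology region was in 15.1% of promoters of genes higher in XII to IV and 16% of those lower, and the CCAAT box in 37.9% and 41.5%. A match of these letters is a description of the window, not a binding site.

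Genes of the acrosome and of egg binding went mainly the other way. Of 41 measured members 17 fell in XII to IV and 4 rose, so that 51.2% were called, against 17.5% of all genes (6.41% lower and 11.1% higher). For 10 members the XII to IV arrays all lay below the IV to VII arrays and for 3 above them, where 4.96% and 10.8% of all genes did. The median difference was -0.44. Hyal5, a sperm hyaluronidase, had 9.63, 10.70, 12.46 and 11.19 in XII to IV and 12.71, 12.51, 12.85 and 12.63 in IV to VII, a difference of -1.68 ± 0.31 (SE, adjusted p 0.014). Its IV to VII arrays spanned 0.34, whereas the XII to IV arrays, from XII-I 1 to II-IV 1, spanned 2.83. Lyzl6, a lysozyme-like sperm protein, had 8.91, 10.29, 11.74 and 10.56 in XII to IV and 12.07, 11.89, 12.02 and 11.92 in IV to VII (-1.60 ± 0.37).

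Eqtn, an acrosomal membrane protein, differed by -1.59 and Sun5, a nuclear envelope protein that couples the sperm head to the tail, by -1.39. Izumo1, the sperm ligand of the egg receptor and chosen here for that role after its values were seen, had 9.79, 10.76, 11.65 and 10.78 in XII to IV and 12.06, 11.78, 12.13 and 11.89 in IV to VII (-1.22 ± 0.27). The 4 members that rose, likewise named after their values were seen, were Dpy19l2 (0.51), Zpbp2 (0.44), Spata16 (0.40) and Izumo4 (0.33). Acr, the acrosin protease, was not called (-0.07, adjusted p 0.521), nor was the hyaluronidase Spam1 (-1.03, adjusted p 0.191).

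How many acrosome members were called depended on the arrays. There were 22 lower and 4 higher without II-IV 1, 12 and 3 without IV-VI 2, 12 and 2 without VII 2, 11 and 2 without XII-I 1, and 3 and 0 without II-IV 2. With the pools as 2 plain groups, 0 were lower and 1 was higher. The list median stayed between -0.58 and -0.34 when these arrays, or IV-VI 1, were left out in turn.

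**Figure D3:**
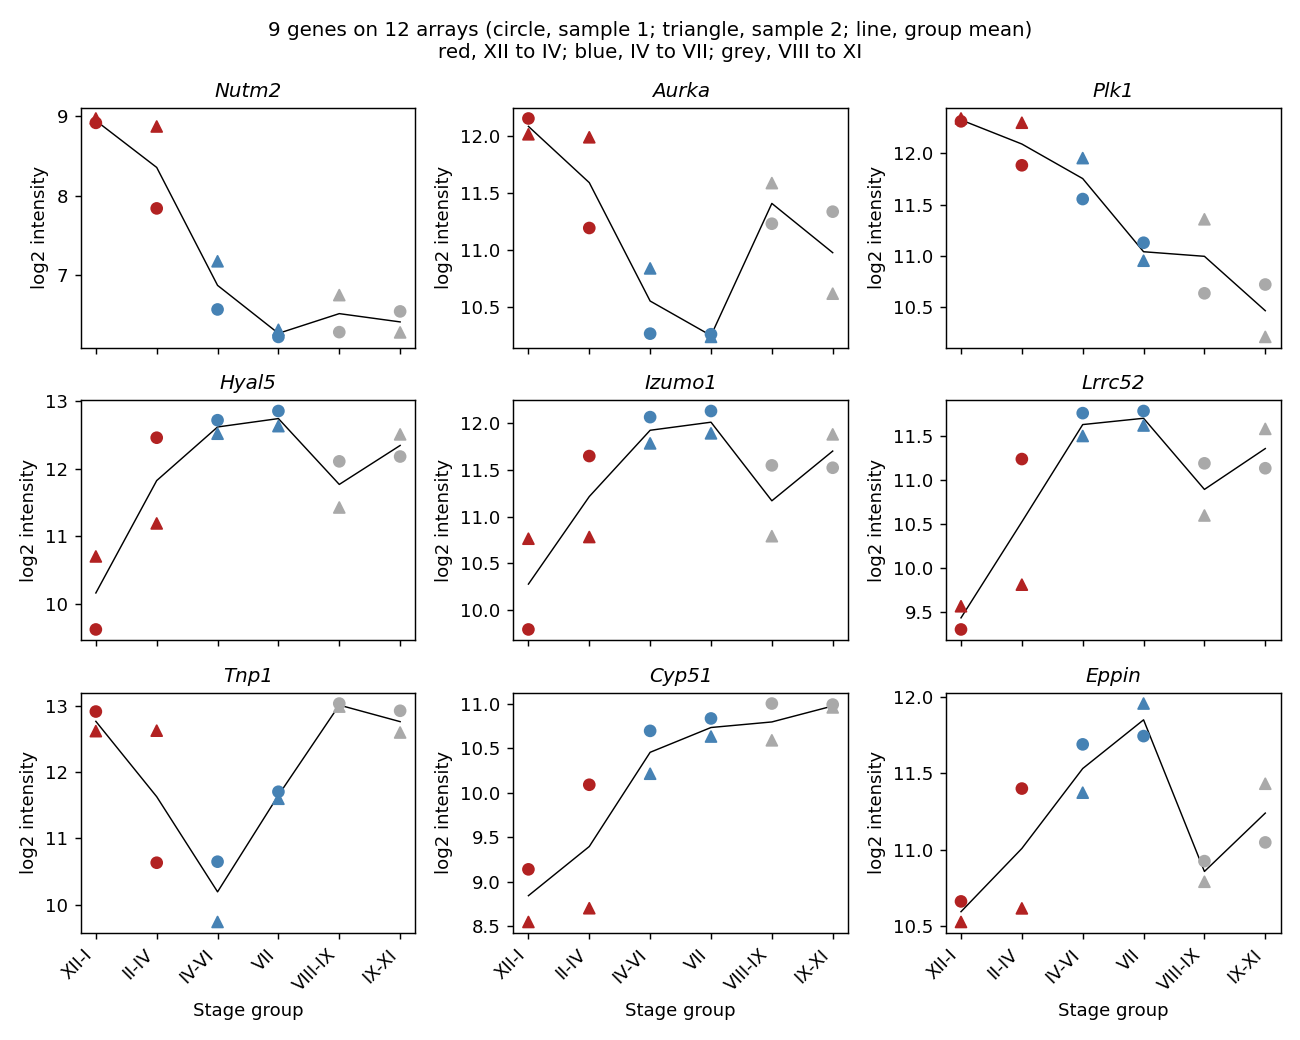
Log2 intensity (vertical axes, scaled per gene) of 9 genes across the 6 stage groups in cycle order; circles are sample 1, triangles sample 2, and the line joins group means; XII to IV is red, IV to VII blue and VIII to XI grey. Nutm2, Aurka and Plk1 are high at XII-I, Hyal5, Izumo1 and Lrrc52 are high at IV-VI and VII, and the red circle at II-IV (II-IV 1) lies toward the blue points in each of the 9 panels.

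Genes for replacing histones and condensing spermatid chromatin showed no shared direction: of 18 measured members 1 rose and 3 fell (22.2% called, against 17.5% of all genes), with a median of 0.07. There were 4 higher and 4 lower without II-IV 1, 1 and 2 without IV-VI 2, 0 and 4 without XII-I 1, 0 and 2 without VII 2, and 0 and 0 without II-IV 2 or with the pools as 2 plain groups. Tnp1, the transition protein that displaces histones, had 12.91, 12.61, 10.63 and 12.62 in XII to IV and 10.65, 9.74, 11.70 and 11.60 in IV to VII, a difference of 1.27 ± 0.37 (SE, adjusted p 0.0449). II-IV 1 lay next to IV-VI 1 and below both VII arrays, so the pools overlapped; without II-IV 1 the difference was 1.77. Of the 12 fits without 1 array, 1 called Tnp1, that without II-IV 1. Tnp2 was likewise low on II-IV 1 (11.96) and IV-VI 2 (11.44) and had no call (0.74, adjusted p 0.0515), and the protamine genes Prm1 (0.44, adjusted p 0.0506) and Prm2 (0.08, adjusted p 0.367) were not called. The members that fell were H1f6 (-0.91), the testis linker histone H1t, Chd5 (-0.68), a chromatin remodeller of spermatids, and H2bc1 (-0.33), the testis histone H2B variant.

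The transcription regulators of round spermatids were split, with 4 of 26 higher, 6 lower and a median of -0.02; 38.5% were called, against 17.5% of all genes (11.1% higher and 6.41% lower). Rfx8, of the RFX family that controls ciliary genes, had 10.55, 10.34, 9.51 and 10.27 in XII to IV and 8.80, 9.44, 8.62 and 8.38 in IV to VII (1.36 ± 0.20, SE). II-IV 1 and IV-VI 2 were again the arrays nearest each other, 0.07 apart. Besides Hsfy2, Fhl5, a coactivator of CREM, differed by -0.81 and Sox5 by -0.79. Crem itself, the main activator of round spermatid genes, was not called (-0.17, adjusted p 0.263). With the pools as 2 plain groups 3 of the 26 were higher and 0 lower, without II-IV 2 there were 1 and 2, without VII 2 there were 3 and 2, without IV-VI 2 there were 3 and 3, and without II-IV 1 there were 4 and 7. In the list of mRNA storage and translation 1 of 26 members rose, Pabpc6 (1.13 ± 0.19), a testis poly(A)-binding protein, and 1 fell, Cpeb2 (-0.44). That is 7.69% of the list, below the 17.5% of all genes, and its median was -0.01.

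Of 49 measured genes of the sperm tail 14 rose and 5 fell (38.8% called, against 11.1% of all genes higher and 6.41% lower). Over all members, called or not, 25 of the 49 differences were above 0, and the median was 0.07. Next to Dnaic2, Dnah2, a heavy chain of the inner dynein arm, had 11.76, 11.37, 10.43 and 11.14 in XII to IV and 10.31, 10.20, 10.60 and 10.47 in IV to VII (0.78 ± 0.16, SE). II-IV 1 lay below both VII arrays. Odf3, of the outer dense fibres, had 11.47, 10.47, 12.17 and 10.78 in XII to IV and 12.75, 12.47, 12.73 and 12.47 in IV to VII (-1.38 ± 0.31), and Tekt5, a tektin, differed by -0.72. The counts were 13 higher and 9 lower without II-IV 1, 12 and 4 without IV-VI 2, 8 and 9 without XII-I 1, 6 and 2 without VII 2, 5 and 2 without II-IV 2, and 4 and 0 with the pools as 2 plain groups, so that without XII-I 1 the lower members were the more numerous.

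Channels and pumps of the sperm membrane held both directions, also among the CatSper genes. Of 18 measured members 6 rose and 5 fell (61.1% called, against 17.5% of all genes). Lrrc52, the subunit that tunes the sperm potassium channel, had 9.30, 9.56, 11.23 and 9.81 in XII to IV and 11.75, 11.49, 11.78 and 11.61 in IV to VII (-1.68 ± 0.28, SE, adjusted p 0.0131). The pore-forming CatSper subunit Catsper3 differed by -1.35 ± 0.38, and the CatSper component Efcab9 by -0.99. Catsper4 differed by -0.98 and Catsper1, outside the 4 largest and named after its values were seen, by -0.94, whereas Catsper2, also named so, was higher (0.47 ± 0.09), with 12.04, 11.99, 11.74 and 11.88 in XII to IV and 11.49, 11.62, 11.40 and 11.27 in IV to VII. The Catsper2 arrays did not overlap between the pools, whereas those of each lower CatSper member did. Of the 18 members, called or not, 6 had all XII to IV arrays above all IV to VII arrays, and 1, Lrrc52, had them below. Over all genes 10.8% lay above and 4.96% below. The list median was 0.04. With the pools as 2 plain groups, 1 member was higher and 1 lower; without II-IV 2 the counts were also 1 and 1, without XII-I 1 they were 2 and 1, without VII 2 they were 3 and 2, without IV-VI 2 they were 4 and 2, and without II-IV 1 they were 5 and 5.

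Among the ADAM proteins of the testis, sperm surface proteins and their processing partners, 4 of 21 rose and 7 fell (52.4% called, against 17.5% of all genes), with a median of -0.39. Adam1b rose by 1.01 ± 0.17 (SE). Next to Adam29, Adam6a differed by -1.78, Adam4 by -1.26 and Adam25 by -1.21; Adam6a has a near-identical copy, Adam6b, and its value is uncertain. Without II-IV 1 there were 3 higher and 9 lower, without IV-VI 2 there were 3 and 3, without XII-I 1 there were 3 and 4, without VII 2 there were 2 and 3, without II-IV 2 there were 1 and 2, and with 2 plain groups 1 and 0.

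Of 22 testis serine proteases 5 rose and 1 fell. The 27.3% called stood against 17.5% of all genes, and was near the 3602 of 13962 without the dimmest 30%. Prss42, which germ cells need to survive meiosis, had 12.30, 11.96, 10.99 and 12.01 in XII to IV and 10.32, 10.86, 10.41 and 10.20 in IV to VII (1.37 ± 0.24). Prss43 differed by 0.96, Prss21 by 0.56 and Prss54 by -0.55. There were 7 higher and 1 lower without II-IV 1, 5 and 0 without IV-VI 2, 4 and 0 without II-IV 2, 3 and 1 without XII-I 1, 3 and 0 without VII 2, and 2 and 0 with 2 plain groups. Of 9 testis-specific and related serine kinases 2 rose, Stk35 (0.49) and Stk33 (0.26), and 2 fell, Tssk4 (-0.70) and Tssk1 (-0.55). The share called was 44.4%, against 17.5% of all genes. The median of the kinases was -0.16, and their largest difference, -1.38, belonged to a member with no call. The kinases had 2 higher and 4 lower without II-IV 1, 2 and 0 without IV-VI 2, 1 and 1 without XII-I 1, 1 and 0 without II-IV 2 or VII 2, and 0 and 0 with 2 plain groups.

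Other supply and turnover lists had between 8.57% and 22.2% of members called, around the 17.5% of all genes, and lost or gained up to 3 calls each when II-IV 1, II-IV 2, XII-I 1, IV-VI 2 or VII 2 was left out. Of 19 chaperones 1 rose, Hspa5 (0.66), the endoplasmic reticulum chaperone BiP, and 2 fell, Pdilt (-1.29), a testis disulfide isomerase homologue, and Dnajb13 (-0.36). Of 18 glycolysis and glucose transport genes 2 rose, Slc2a8 and Pfkp (0.75), a phosphofructokinase, and 2 fell, Slc16a7 (-0.46), a pyruvate and lactate transporter, and Pdha2 (-0.43), the testis pyruvate dehydrogenase subunit. Of 33 proteasome and ubiquitin genes 1 rose, Ubqlnl (0.49), and 4 fell: Asb15, Rnf151 (-0.88), Ube2a (-0.85) and Psma8 (-0.47), the germ cell proteasome subunit. Of 35 respiratory chain genes 2 rose and 1 fell, Sdhd (0.38), Ndufs1 (0.38) and Cyc1 (-0.48). Of 18 cholesterol synthesis genes 0 rose and 2 fell, Fdps (-0.40) and Cyp51. Cyp51, the lanosterol demethylase, which spermatids express strongly, had 9.14, 8.55, 10.09 and 8.70 in XII to IV and 10.70, 10.21, 10.84 and 10.63 in IV to VII (-1.48 ± 0.28, SE).

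The premeiotic and meiotic prophase lists held both directions. Of 39 DNA replication genes 7 rose and 6 fell (33.3% called, against 17.5% of all genes). Rrm2 (0.68) and Rrm1 (0.62), the ribonucleotide reductase subunits, were higher, and Orc1 (-0.67), of the origin recognition complex, and Gins3 (-0.63) were lower. Without II-IV 1 the counts were 7 and 11, without IV-VI 2 they were 3 and 4, without VII 2 they were 3 and 2, without II-IV 2 they were 3 and 1, and with 2 plain groups 1 and 1. Of 25 genes of undifferentiated spermatogonia 3 rose and 3 fell. The 24% called stood against 17.5% of all genes, and was near the 3602 of 13962 without the dimmest 30%. The GDNF-responsive factors Etv5 (0.95) and Bcl6b (0.48) were higher, and Id4 (-0.78), a marker of stem cells, and Taf4b (-0.39) were lower. There were 2 and 1 without VII 2, II-IV 2 or XII-I 1 or with 2 plain groups, 2 and 2 without IV-VI 2, and 3 and 2 without II-IV 1. The defining markers Gfra1 (-0.04) and Zbtb16 (0.04) had adjusted p of 0.767 and 0.775. Of 22 genes of differentiating spermatogonia 2 rose and 6 fell, led by Esx1 (-0.82); there were 2 and 7 without II-IV 1, 1 and 3 without IV-VI 2, 2 and 2 without VII 2, 1 and 2 without XII-I 1, 1 and 1 without II-IV 2, and 1 and 0 with 2 plain groups. Kit (-0.05, adjusted p 0.784) and Stra8 (-0.24, adjusted p 0.271) of that list were not called. With all arrays 36.4% of that list was called, against 17.5% of all genes.

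In meiotic prophase 3 of 32 genes rose and 5 fell, with a median of -0.16. The 25% called stood against 17.5% of all genes, and was near the 3602 of 13962 without the dimmest 30%. Meiob, a partner of single-stranded DNA in recombination, had 8.74, 9.02, 9.08 and 9.05 in XII to IV and 8.13, 8.89, 7.85 and 7.30 in IV to VII (0.93 ± 0.19, SE), and II-IV 1 here lay with the other XII to IV arrays. Dmc1, the meiotic recombinase, differed by 0.77, and Terb2 (-0.84) and Tex12 (-0.61), of the telomere attachment complex and the synaptonemal complex, were lower. The prophase list had 3 higher and 11 lower without II-IV 1, 2 and 1 without VII 2 or IV-VI 2, 1 and 1 without II-IV 2, and 1 and 0 with 2 plain groups. Of 20 pachytene and diplotene genes 5 rose and 4 fell (45% called, against 17.5% of all genes). Ccna1 was among the first, and Adad2 (-1.12), Ccnb1ip1 (-0.93) and Piwil1 (-0.82) among the second. This list had 5 and 4 without II-IV 1, 4 and 3 without IV-VI 2, 2 and 4 without XII-I 1, 2 and 2 without VII 2, 1 and 2 without II-IV 2, and 1 and 1 with 2 plain groups. Of 24 piRNA pathway genes, which silence transposons in germ cells, 1 rose, Tdrd6 (0.29), and 7 fell. The share called was 33.3%, against 17.5% of all genes (11.1% higher and 6.41% lower). Tdrd1, a scaffold of the germ granule, had 10.66, 10.16, 11.35 and 10.24 in XII to IV and 11.55, 11.35, 11.71 and 11.63 in IV to VII (-0.96 ± 0.21), and Tdrd5 (-0.71) and Tdrkh (-0.52) were also lower. Of the piRNA list 0 rose and 1 fell with 2 plain groups or without II-IV 2, and 0 rose and 2 fell without VII 2; without IV-VI 2 there were 1 and 4, and without II-IV 1 there were 1 and 11.

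Of 32 retinoid genes 4 rose and 2 fell (18.8% called, near the 17.5% of all genes). There were 4 and 3 without II-IV 1, 2 and 2 without IV-VI 2 or XII-I 1, 1 and 2 without VII 2, and 1 and 1 without II-IV 2 or with 2 plain groups. Rxra, a retinoid X receptor, had 9.26, 8.76, 9.59 and 8.94 in XII to IV and 10.27, 9.62, 10.30 and 10.36 in IV to VII (-1.0 ± 0.19, SE, adjusted p 0.0144). The pools came within 0.03 of each other, at II-IV 1 and IV-VI 2. Stra6, the retinol uptake receptor, had 8.46, 8.38, 8.23 and 8.13 in XII to IV, 8.49 and 8.27 in IV-VI, and 9.12 and 9.82 in VII (-0.63 ± 0.15), so that only the VII arrays stood above the rest. Dhrs4 (0.87), a retinal reductase, and Rxrg (0.67), another retinoid X receptor, were higher. Aldh1a1 (-0.08, adjusted p 0.778), a retinoic acid synthesising enzyme of Sertoli cells, was not called.

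Sertoli cells, the supporting cells of the tubule, gave 3 higher and 2 lower of 24 general genes (20.8% called, near the 17.5% of all genes). Fgf2 (0.52), Fshr (0.50), the receptor for follicle stimulating hormone, and Inhbb (0.44) were higher, and Rhox8 (-0.48) was lower. Of 27 cyclic or androgen-regulated Sertoli genes 0 rose and 6 fell. The 22.2% that fell stood against 6.41% of all genes lower, and 11.1% of all genes were higher. Eppin, a protease inhibitor that coats sperm, had 10.66, 10.53, 11.40 and 10.61 in XII to IV and 11.69, 11.37, 11.74 and 11.96 in IV to VII (-0.89 ± 0.17, SE, adjusted p 0.0142). II-IV 1 lay above IV-VI 2. Serpina5 (-0.86), Corin (-0.80) and Drd4 (-0.79) were lower too, and Aqp8 had -1.29 with no call (adjusted p 0.0514). The summed intensity of the cyclic list was 24368 to 31245 in XII to IV and 29580 to 39590 in IV to VII, with the highest value on VII 2. That array was also the highest for the general Sertoli list, 42211, against 29244 to 30521 in XII to IV and 28483 to 29636 on the other IV to VII arrays. Without VII 2 the general list had 5 higher and 1 lower, with a median of 0.09, and the cyclic list had 2 higher and 4 lower, with Eppin and Serpina5 still called. The general list had 4 and 2 without II-IV 1, 3 and 1 without IV-VI 2, 1 and 1 without XII-I 1, and 1 and 0 without II-IV 2 or with 2 plain groups. The cyclic list had 0 higher in these fits, with 7 lower without II-IV 1 or IV-VI 2, 4 without XII-I 1, 3 without II-IV 2 and 2 with 2 plain groups.

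Of 32 genes of the blood-testis barrier and cell junctions 4 rose and 1 fell (15.6% called, near the 17.5% of all genes). Ocln, the tight junction protein occludin, had 8.66, 8.26, 7.71 and 8.27 in XII to IV and 6.94, 7.54, 7.28 and 7.81 in IV to VII (0.84 ± 0.19, SE). VII 2 lay above II-IV 1. Cdh2 (0.50), Espn (0.46) and Jam3 (0.38) were higher and Cldn23 (-0.34) lower, and none of the list was called with 2 plain groups or without II-IV 2. There were 5 and 1 without II-IV 1, 5 and 0 without VII 2, 3 and 1 without IV-VI 2, and 1 and 0 without XII-I 1.

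Markers of the interstitium were mostly not called. Of 8 Leydig cell, 12 peritubular myoid cell, 15 macrophage and 12 epididymis genes 0 passed the test. All 8 Leydig genes had differences below 0, with a median of -0.21; it was -0.05 without VII 2. The macrophage sum was 7873 to 9184 in XII to IV and 7783 to 11891 in IV to VII, and Lyz2, a macrophage lysozyme, had 11.07 on VII 2 and 9.12 to 9.46 on the other 7 arrays. Of 12 endothelial genes 1 fell, Cdh5 (-0.42), and Pecam1 had -0.01. That was 8.33% called, against 17.5% of all genes. Of the 4 blood genes 1 rose (25% called). Alas2, the erythroid haem synthesis enzyme, had 9.42, 10.27, 10.05 and 10.33 in XII to IV and 8.69, 9.75, 7.89 and 8.23 in IV to VII (1.37 ± 0.26), while Slc4a1, the red cell anion exchanger, had 0.11 (adjusted p 0.554). Of 18 immediate early genes, which respond to handling of tissue, 0 rose and 3 fell. That was 16.7% of the list, where 6.41% of all genes fell and 11.1% rose. The 3 were Egr3 (-0.86), Klf4 (-0.80) and Dusp1 (-0.77), whereas Fos (0.09) and Egr1 (0.00) had adjusted p of 0.725 and 0.982. The immediate early list had 1 higher and 4 lower without II-IV 1, 0 and 3 without IV-VI 2, 0 and 2 without XII-I 1, 1 and 1 without VII 2 (median 0.08, against -0.02 with all arrays), and 0 and 0 without II-IV 2. The part of these cells and of tissue handling in the differences above was not tested.

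**Figure D4:**
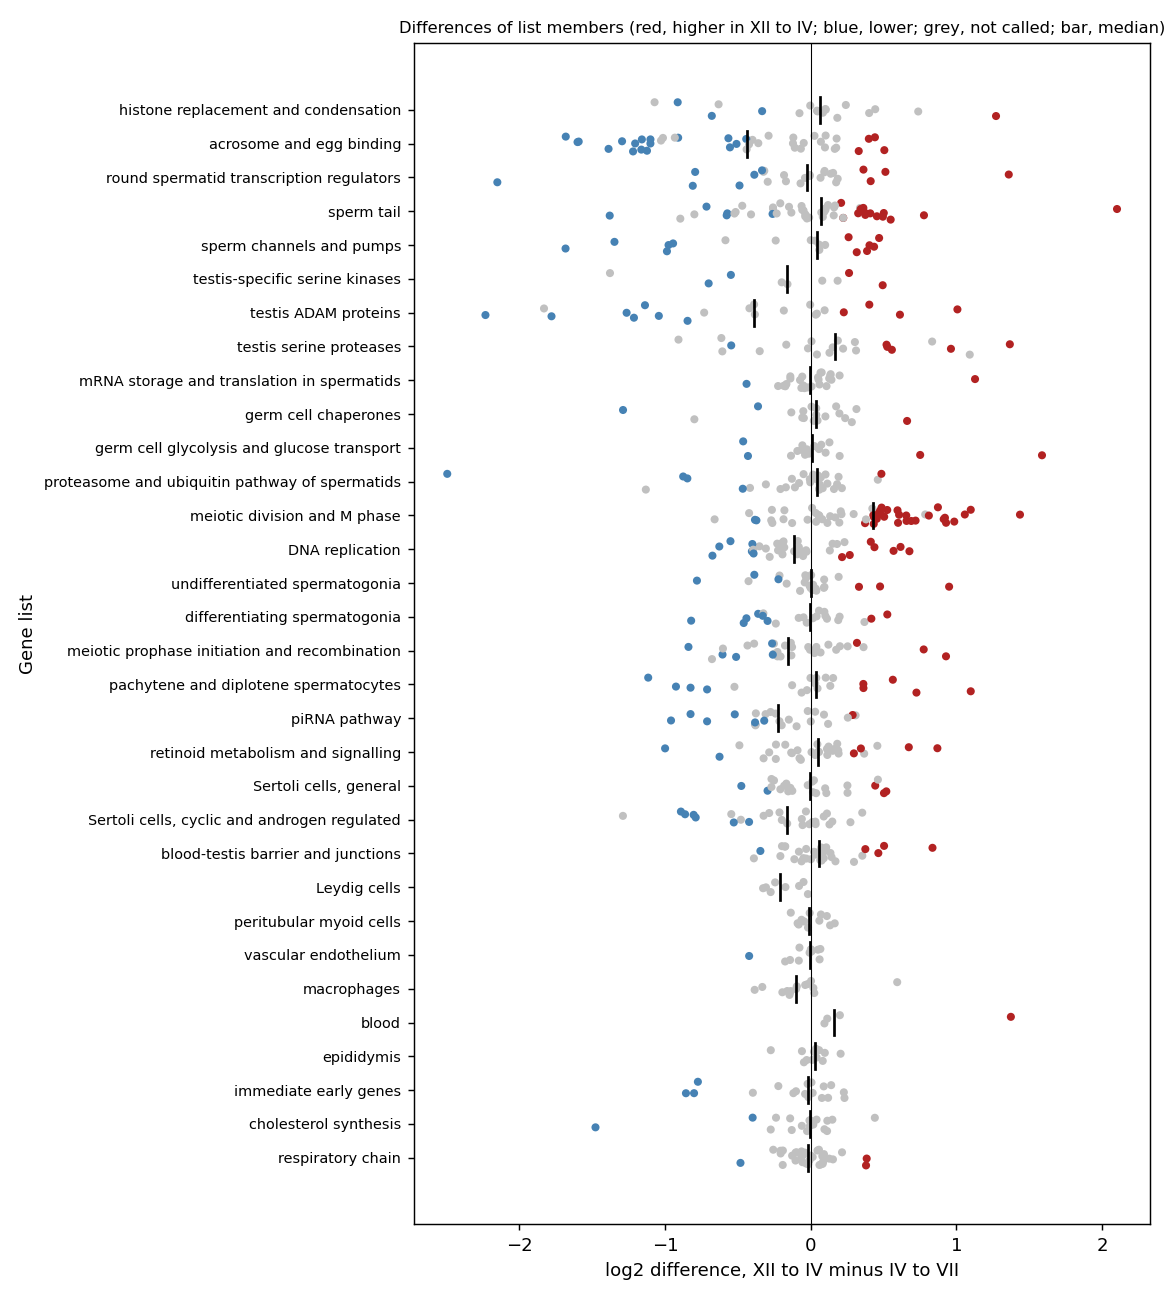
Differences in log2 intensity, XII to IV minus IV to VII (horizontal axis), of every measured member of the 32 gene lists (rows); points are red where higher, blue where lower and grey where not called, and the bar is the list median. The M phase list is centred at 0.43 with 28 of 56 members red, and the acrosome list at -0.44 with 17 of 41 members blue.

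Neighbouring groups could not be told apart gene by gene with 2 arrays each. In limma with all 12 arrays, 0 genes passed for XII-I minus II-IV, with 1980 at an unadjusted p under 0.05 and a smallest adjusted p of 0.501. For II-IV minus IV-VI, the step between the pools, 0 passed, with 1323 at an unadjusted p under 0.05 and a smallest adjusted p of 0.111; without II-IV 1 there were 22, of which 14 were higher in II-IV. For IV-VI minus VII 0 passed, with 1183 at an unadjusted p under 0.05 and a smallest adjusted p of 0.597; without VII 1 there were 393, of which 22 were higher and 371 lower in IV-VI. Each of these fits leaves its group with 1 array, assumed to vary like the arrays of the other groups. The lone VII array is then VII 2, the array with the high Leydig cell and macrophage sums given above; their part in these 393 genes was not tested. A contrast of XII-I with VII alone, in the same fit, called 3207 genes, 2182 higher and 1025 lower in XII-I.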

How the data were processed

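RNA of whole testes, 6 stage groups of 2 samples, was hybridised to 12 Affymetrix Mouse Gene 1.0 ST arrays. Per the labels' protocols, 100 ng of total RNA was amplified and 3.75 ug of cDNA was labelled. The authors deposited 1 table of intensity values on a linear scale; the submitters' processing notes name RMA, with no version. A normalization of this kind brings the arrays close to 1 distribution, so a change in total RNA per cell is not seen. The array medians of the deposited values still ran from 296.9 to 309.1. The table held 28853 probe sets and 0 columns of other samples. Of the probe sets, 21797 had 1 gene symbol in the platform annotation, 1613 had several and 5443 were not listed; a gene was represented by its brightest single-symbol probe set, which gave 19946 genes, 999 of them chosen among several probe sets.

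Log2 values were fitted with limma 3.58.1 in R 4.3.3 as 6 group means over 12 arrays (6 residual degrees of freedom), with eBayes, two-sided tests and Benjamini-Hochberg adjustment over all genes; the threshold was 0.05. The SD of a pool covers its 4 arrays, and the SE is that of the fitted contrast. The number of arrays limits the precision. Simulated data with known changes in this comparison were fitted over 19946 genes. Of genes changed by 0.5 on the log2 scale 36 of 67 were called, 61 of 67 changed by 1 and 65 of 66 changed by 2. There were 7 false calls. The simulated noise was independent between genes, and the stage groups had 1 level apart from the set changes. Shifts of a whole array, such as that of II-IV 1, were not simulated. The recovery and the false calls may therefore not carry over to these data.

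The genes named were the 15 largest differences each way among called genes whose arrays did not overlap between the pools, passing over predicted genes, receptors of smell and taste and small RNAs (5 passed over among the higher genes and 7 among the lower), and up to 4 called members of each of 32 lists. Genes outside this rule were named after their values were seen, also where the text gives a gene with no call. The members and lists were chosen with earlier results of these data known. Replicate numbers were not taken as pairs: the correlations between groups of the deviations from group means lay between -0.35 and 0.54. Alternatives were a fit of the 8 arrays, a replicate block, a repeated quantile normalization, a filter on dim genes, other choices of probe set, array weights, 2 plain groups and each array left out. Promoters were matched by symbol to RefSeq tables of GRCm38.p6.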

Additional observations from a re-analysis of the deposited data

Results flagged for a closer look

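For each of the 30 genes with the largest differences, an array was singled out where its gap to the nearest of the other 3 arrays of its pool, divided by the range of the pool, passed Dixon's critical value for 4 samples. Of 60 pools, 11 were singled out. The chance rate of about 1 in 20 holds for independent, unselected samples. It is no baseline here, because the genes were picked for large differences without overlap between the pools. II-IV 1 accounted for 8 of the 11. These 8 are not independent, since II-IV 1 was the XII to IV array nearest to the other pool for 29 of the 30 genes. It was the low array of XII to IV for Defb33 (9.96, the nearest of the others at 11.37), Dnaic2 (10.36, nearest 11.55), Nutm2 (7.84, nearest 8.87) and Ccnf (9.52, nearest 10.45). It was the high array of XII to IV for Klf17 (8.96, nearest 6.73), Mroh5 (11.51, nearest 9.67), Heatr9 (9.97, nearest 7.99) and Cngb3 (9.12, nearest 7.02). In IV to VII, IV-VI 1 was the low array for Spata32 (8.72, nearest 9.38), and IV-VI 2 was the high array for Ssxb5 (6.41, nearest 5.53) and Aurka (10.84, nearest 10.26). In each of these pools except that of Spata32 the array lay toward the other pool.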

How the results depend on the processing

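The 3499 calls became 2208 in a fit of the 8 arrays as 4 group means and 916 with 2 plain groups. Other settings moved the count by less than 1.5 times, and the share of higher calls was 63.4% with the main settings and 56.7% to 73.6% over all settings with calls. With 1 array left out in turn the count lay between 0 and 4533, and 0 came without IV-VI 1; the cause was not tested. For the 3 contrasts of neighbouring groups, the ranges with 1 array left out were 0 to 1 (XII-I minus II-IV), 0 to 22 (II-IV minus IV-VI) and 0 to 393 (IV-VI minus VII). Quantile normalization again gave 1 gene for II-IV minus IV-VI. The replicate block, whose numbers are not known to pair samples, gave 3870 calls for the pools, 0 for the first and second of these contrasts and 1 for IV-VI minus VII. Of 121 named genes 0 reversed in any setting; 73 lost their call with 2 plain groups, 28 with the 8 arrays, 52 without II-IV 2, 45 without VII 1, and all 121 without IV-VI 1. The filter on dim genes left 116 of them to test. Several settings keep each difference as it was, so they could not reverse it. Among these were the fit of the 8 arrays, the replicate block, the array weights and the 2 plain groups. The filter on dim genes and the fits without a VIII to XI array were others. For the 30 genes with the largest differences, whose pools did not overlap, leaving out 1 array could not reverse it either.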

Other observations

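Genes on the X chromosome, which is transcriptionally silenced in pachytene spermatocytes, had 47 of 739 higher in XII to IV (6.36%) and 62 lower (8.39%), against 11.1% and 6.41% of all genes. Their median difference was 0.00 on the log2 scale and 0.03 over all genes. Of 9 genes on the Y chromosome 2 were higher and 0 lower.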
